A study of Homo sapiens with 23 samples.

Results

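LMX1B, MSX1, LMX1A and MSX2 are homeobox genes of the roof plate, and all 4 were among the 9497 genes listed in the RNA-seq tables of human thalamus organoids (ThOs). LMX1B and MSX1 were selected on their higher values in KO than in WT ThOs in these same libraries. The difference of the 4 genes between KO and WT is therefore a description and carries no test below. ThOs are cultures of pluripotent cells steered towards thalamic tissue, and these were grown from H1, an established human embryonic stem cell line. In the study's methods, the thalamus patterning medium given to ThOs held BMP7 and PD325901. WT ThOs came from unedited H1 cells. KO ThOs came from H1 cells edited by CRISPR/Cas9 in c-JUN, the gene with the symbol JUN, whose protein pairs with FOS proteins to bind DNA as AP-1. OE ThOs came from such a knockout in which c-JUN was expressed again, in the study's methods from a doxycycline-induced construct, so they carry the edit as well. Both day 25 and day 30 of culture were sampled for each genotype, with 2 libraries per group, 12 in all, and 3 organoids pooled in each library. Another 11 samples of the series, measuring chromatin, were not analysed here.

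The design text speaks of 2 knockout lines, but the labels do not say which line a library came from, so line and replicate cannot be told apart. Nothing says that the libraries of a group came from separate differentiations, so each p-value measures only the spread between these libraries. The values are normalized scores, whole numbers of at least 11 with a median of 106 in each library, and the read depth behind them is unknown. The targeted gene went against the label: JUN was at 128 to 162 in the WT libraries, at 196 to 353 in those labelled KO and at 202 to 362 in those labelled OE. The study's western blots and RT-qPCR of the KO lines, which are not part of these tables, ran the way of the labels, and a transcript level alone does not show whether libraries were exchanged. "KO" below means the libraries labelled KO, and each direction between genotypes rests on the labels. Replicates were less alike in KO, where Spearman's rho across genes was 0.821 at day 25 and 0.769 at day 30, than in WT and OE, where it ran from 0.936 to 0.959. KO day 30 replicate 2 and then KO day 25 replicate 2 stood farthest from the other libraries, with median rho of 0.745 and 0.830. Of 15 thalamus markers, 7 were listed, including TCF7L2 at 109 to 465, while GBX2 and OLIG3 were not.

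The roof plate is the strip of cells at the dorsal midline of the neural tube, where secreted BMP and WNT proteins set the identity of the neighbouring neural cells. BMP signals switch on MSX1 and MSX2, homeodomain proteins that mostly act as repressors. BMP7 was in the patterning medium of these cultures, and its part in the values below was not tested. LMX1A and LMX1B are LIM-homeodomain activators, and LMX1A is required for the roof plate. LMX1B acts at the isthmus, acts with LMX1A in dopamine neurons and is needed for serotonin neurons. In the forebrain, the dorsal midline gives rise to the cortical hem and the choroid plexus, and WNT1 marks the dorsal midline of the caudal diencephalon and midbrain. A bulk library cannot separate fewer cells of a type from less RNA per cell, and this holds for every value below.

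The promoters are shown because the design removes a DNA-binding factor, and a reader may want to see the letters upstream of the genes that chose the set and of MSX2. The 250 bases before the annotated start, 5′ to 3′ on the gene's strand, are from RefSeq on GRCh38.p14, with matches to the motifs searched in capitals. LMX1B lies at chr9:126613678-126613927 for this stretch, MSX1 at chr4:4859415-4859664 and MSX2 at chr5:174724332-174724581, each on the plus strand.
LMX1B: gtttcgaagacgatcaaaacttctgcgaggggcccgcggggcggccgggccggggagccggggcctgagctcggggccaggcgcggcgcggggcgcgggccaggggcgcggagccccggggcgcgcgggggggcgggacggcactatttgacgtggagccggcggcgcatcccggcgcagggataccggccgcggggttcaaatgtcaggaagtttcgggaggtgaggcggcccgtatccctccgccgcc
MSX1: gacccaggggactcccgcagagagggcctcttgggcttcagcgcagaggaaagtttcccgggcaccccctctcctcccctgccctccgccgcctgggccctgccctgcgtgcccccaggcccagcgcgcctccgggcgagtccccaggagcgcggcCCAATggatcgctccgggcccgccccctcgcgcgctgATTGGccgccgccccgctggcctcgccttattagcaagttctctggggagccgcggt
MSX2: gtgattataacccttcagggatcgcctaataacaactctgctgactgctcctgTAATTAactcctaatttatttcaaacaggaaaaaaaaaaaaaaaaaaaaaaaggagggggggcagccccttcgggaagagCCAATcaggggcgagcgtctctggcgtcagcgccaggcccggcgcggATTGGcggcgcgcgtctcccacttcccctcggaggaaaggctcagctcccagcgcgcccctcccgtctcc
Searched on both strands were the AP-1 site TGANTCA, the CRE site TGACGTCA, the homeodomain core TAATTA and the CCAAT box CCAAT, none of which overlaps another in these stretches. In windows from 250 bases before to 50 after the start, AP-1 letters occurred in 7.71% of 35116 promoters and in none of those of the 4 genes. CRE letters occurred in 1.85% of all and in none of the 4. TAATTA occurred in 4.84% of all and in MSX2, with its first base 197 before the start. CCAAT occurred in 34.6% of all, and both MSX1 and MSX2 held it once on each strand. In MSX1 the first bases lay 94 and 57 before the start, and in MSX2 117 and 70 before it. The LMX1B stretch held no match and was 76.4% G and C, MSX1 was 74% and MSX2 55.6%, against a median of 58% over the same 250 bases of all promoters. LMX1A has 2 annotated starts, at 75.2% and 64.4%, with no match in either window.

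LMX1B (ENSG00000136944, GRCh38 chr9:126613928-126701032, plus strand) had its highest values in the KO libraries at both days. At day 25, WT read 134 and 112, KO read 525 and 388 and OE read 22 and 72 in replicates 1 and 2. At day 30, WT read 160 and 76, KO read 375 and 368 and OE read 182 and 65. The 4 KO libraries lay above all 8 others, and at day 25 both OE libraries lay below both WT libraries. At day 25 KO averaged 456.5 ± 96.9 (SD, n = 2), a log2 fold change over WT of 1.87, and OE averaged 47 ± 35.4 (SD, n = 2). At day 30 KO averaged 371.5 ± 4.95 (SD, n = 2), a log2 fold change over WT of 1.74, and OE averaged 123.5 ± 82.7 (SD, n = 2). From KO to OE the log2 change was -3.46 at day 25 and -1.76 at day 30. Below the KO groups, OE at day 30, WT at day 25 (123 ± 15.6, SD, n = 2) and WT at day 30 (118 ± 59.4, SD, n = 2) overlapped in their libraries, and OE at day 25 had the lowest mean but overlapped OE at day 30. Leaving out 1 OE library moved the day 25 change to between -4.30 and -2.63 and the day 30 change to between -2.50 and -1.03.

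MSX1 (ENSG00000163132, GRCh38 chr4:4859665-4863936, plus strand) was also higher in KO at both days, and its OE libraries lay within the WT range of 112 to 200 at day 25 and in 1 library of day 30. At day 25, WT read 169 and 132, KO read 484 and 732 and OE read 135 and 116. At day 30, WT read 200 and 112, KO read 310 and 528 and OE read 438 and 140. No KO library overlapped WT, whereas OE day 30 replicate 1, at 438, sat between the KO libraries of that day. KO averaged 608 ± 175 (SD, n = 2) at day 25, ahead of KO at day 30 with 419 ± 154 (SD, n = 2) and OE at day 30 with 289 ± 211 (SD, n = 2). The other 3 groups averaged 125.5 to 156, and their libraries overlapped. The log2 fold change of KO over WT was 1.99 at day 25 and 1.43 at day 30. From KO to OE it was -2.24 at day 25 and -0.71 at day 30, and the latter became -1.52 without OE day 30 replicate 1 and 0.11 without replicate 2.

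**Figure D1:**
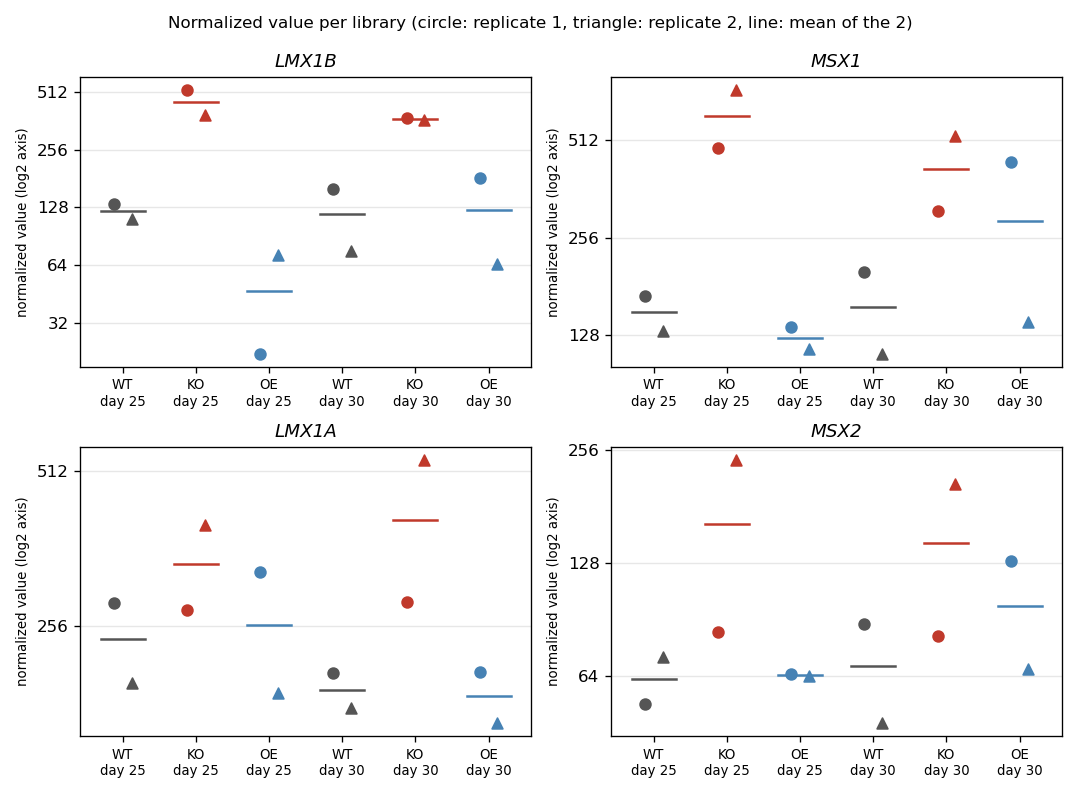
Normalized value of LMX1B, MSX1, LMX1A and MSX2 in each of the 12 libraries on a log2 axis, by genotype and day (grey WT, red KO, blue OE; circles replicate 1, triangles replicate 2, lines the mean of the 2). The KO libraries of LMX1B (368 to 525) and MSX1 (310 to 732) clear the WT libraries (76 to 160 and 112 to 200), while for MSX2 the KO replicate 1 libraries, at 84 and 82, lie within the WT range.

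LMX1A (ENSG00000162761, GRCh38 chr1:165201867-165356715, minus strand), the closest relative of LMX1B, differed less. At day 25, WT read 284 and 199, KO read 275 and 402 and OE read 326 and 190. At day 30, WT read 208 and 178, KO read 285 and 538 and OE read 209 and 166. The lowest KO value, 275, fell under the highest WT value, 284, so the genotypes overlapped, although within day 30 both KO libraries exceeded all 4 others. The log2 fold change of KO over WT was 0.48 at day 25 and 1.02 at day 30, and the latter became 0.56 without KO day 30 replicate 2 and 1.48 without replicate 1. The OE libraries, at 166 to 326, covered the WT range.

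MSX2 (ENSG00000120149, GRCh38 chr5:174724582-174730896, plus strand), the relative of MSX1, was high in only 1 of the 2 KO libraries at each day. At day 25, WT read 54 and 72, KO read 84 and 241 and OE read 65 and 64. At day 30, WT read 88 and 48, KO read 82 and 208 and OE read 130 and 67. Both high KO libraries were replicate 2, the ones that stood farthest from the rest over all genes, and replicate 1 lay within the WT range of 48 to 88. The log2 fold change of KO over WT was 1.18 at day 25 and 1.00 at day 30. Without KO replicate 2 it was 0.42 and 0.33.

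Of the 4 genes, LMX1B and MSX1 had 4 KO libraries above 4 WT libraries without overlap, as did 2.74% of all 9497 genes, 260 in number. This is the contrast that chose the set, and nothing is read from it. LMX1B alone also had all 4 OE libraries below all 4 KO libraries, which 4.51% of all genes had. In the model across all genes, KO against WT called 0.0105% of genes at day 25 and 0% at day 30, where 699 genes had an unadjusted p under 0.05 in limma. OE against KO called 0.274% at day 25 and 0.0842% at day 30, and OE against WT over both days called 0.158%. Calls here required at least 2-fold and an adjusted p under 0.05. These comparisons share WT or KO libraries with the choice of the set, so for its members only the values stand.

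Among the members, the library of a pair that read higher was the same for LMX1A and MSX1 in all 6 groups. MSX2 shared that order with each of them in 5 of 6 groups, whereas LMX1B shared it in 3 of 6 groups with LMX1A, 3 with MSX1 and 2 with MSX2. In KO, replicate 2 was the higher library at both days for MSX1, MSX2 and LMX1A, and replicate 1 for LMX1B. The 2 KO libraries with the number 2 stood apart over all genes, and their part in these orders was not tested.

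Tests were kept to whether OE stood away from the midpoint of WT and KO and whether day 30 differed from day 25. Both draw on the WT and KO libraries that chose the members. The first difference is independent of KO minus WT only as far as the spread is alike in WT and KO, and KO replicates spread more over all genes. For LMX1B the replicates lay apart on the log2 scale by 0.44 at day 25 and 0.03 at day 30 in KO. That gap was 0.26 and 1.06 in WT and, widest, 1.67 and 1.47 in OE. The first difference is a distance from the midpoint, not from WT: a gene higher in KO whose OE equalled WT would also lie below the midpoint. LMX1B was lower in OE than the midpoint by a log2 change of -1.71 (SE 0.347, 95% interval -2.47 to -0.95), with an adjusted p of 0.0416, and 0.621% of all genes were called lower here. Of this difference, 0.90 is the distance from WT up to the midpoint, set by the gap between KO and WT that chose the gene. The remaining -0.81 is the log2 change of OE from WT. The call therefore does not separate OE from WT and is no evidence apart from the choice of the gene. An exact two-sided permutation of OE labels within day gave p = 0.0444 on the log2 scale, where the smallest p of its 225 arrangements is 0.00444, and p = 0.0844 on the values themselves. The change lay between -2.13 and -1.29 in all 20 alternatives run, but the limma call was lost in 10 of them, with adjusted p from 0.0220 to 0.249 over the 20. Among single libraries left out, it was lost for every library other than OE day 25 replicate 2, KO day 30 replicate 1 and OE day 30 replicate 1.

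MSX1 did not pass, at a log2 difference of -0.62 (95% interval -1.26 to 0.03, adjusted p = 0.352, limma; exact permutation p = 0.329). LMX1A was at -0.37 (95% interval -0.84 to 0.11, adjusted p = 0.471, limma; exact permutation p = 0.302). MSX2 was at -0.26 (95% interval -1.01 to 0.49, adjusted p = 0.777, limma; exact permutation p = 0.600). The intervals of MSX1 and MSX2 include both no difference and a 2-fold lower value in OE.

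**Figure D2:**
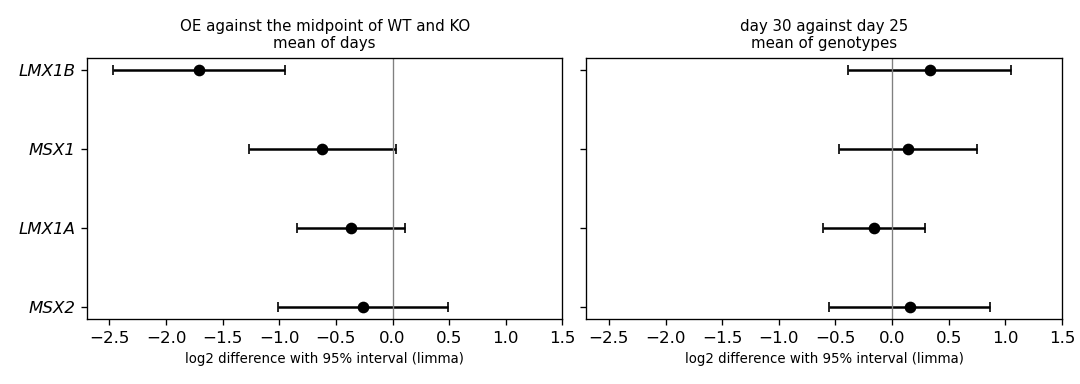
Log2 difference with its 95% interval from limma for the 4 genes, on the left OE minus the midpoint of WT and KO over both days and on the right day 30 minus day 25 over the 3 genotypes. The interval of LMX1B on the left, from -2.47 to -0.95, lies below 0, and the other 7 intervals include 0. For LMX1B, 0.90 of the difference on the left is the distance from WT up to the midpoint, set by the gap that chose the gene.

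Averaged over the genotypes, no member was called between the days. The log2 difference of day 30 from day 25 was 0.33 for LMX1B (95% interval -0.39 to 1.05), 0.14 for MSX1 (-0.47 to 0.75), -0.16 for LMX1A (-0.61 to 0.29) and 0.15 for MSX2 (-0.55 to 0.86). Their adjusted p in limma was 0.740, 0.879, 0.796 and 0.887, and 0% of all genes were called, with 1073 at an unadjusted p under 0.05. The exact two-sided permutation p, permuting days within genotype, was 0.556, 0.731, 0.509 and 0.657, where 0.00926 is the smallest that 216 arrangements allow. The interval of LMX1B includes a 2-fold higher value at day 30. This average does not show that the genotypes moved unlike each other. Mean log2 LMX1B went from 5.36 to 6.78 in OE, 8.82 to 8.54 in KO and 6.95 to 6.80 in WT. Mean log2 MSX1 went from 6.98 to 7.96, 9.22 to 8.66 and 7.23 to 7.24. These changes within a genotype were not tested.

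The wider roof plate list held 30 genes, of which 22 were listed in the tables. No gene of it was called in KO against WT in limma. At an unadjusted p under 0.05 and 2-fold, 6 were lower at day 25, beside 2.84% of all genes. At day 30, 4 were higher and 3 lower, beside 1.41% and 1.53% of all genes. In KO against WT the list's median log2 change was -0.11 at day 25 and 0.08 at day 30, beside -0.02 and 0.00 over all genes. WNT1, a secreted signal of the dorsal midline, was the 1 gene of the 22 with all KO libraries above all WT libraries, 4.55% beside 2.74% of all genes, which is near the background. At day 25 it read 42 and 43 in WT, 47 and 152 in KO and 15 and 20 in OE, with the lower library first. At day 30 these pairs were 36 and 38, 139 and 262, and 18 and 43. RSPO2, a secreted WNT potentiator, and WNT8B, a ligand of the cortical hem, were also picked out by the study from these libraries, so they are not independent evidence. WNT8B, also with the lower library first, read 46 and 51 in KO at day 25 against 169 and 334 in WT. At day 30 it read 20 and 27 against 44 and 65, and it was not called. In replicates 1 and 2, RSPO2 read 26 and 28 in KO at day 25 against 436 and 580 in WT and 1606 and 678 in OE. OE exceeded KO at day 25 by a log2 change of 5.22 (SE 0.674), with an adjusted p of 0.0180, and no other gene of the list was called in that comparison. This call was lost in 3 of 13 alternatives: without OE day 25 replicate 1 (adjusted p = 0.220), with only the libraries compared (0.164) and with library weights (0.112). At day 30, RSPO2 read 112 and 54 in KO, 328 and 455 in WT and 78 and 460 in OE in replicates 1 and 2. The difference of OE from KO was not called there (log2 change 1.28, adjusted p = 0.489).

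Against the midpoint of WT and KO, 4 of the 22 roof plate genes were called lower in OE, 18.2% beside 0.621% of all genes. None was called higher, where 1 was higher at an unadjusted p under 0.05 and 2-fold in limma, beside 0.874% of all genes. The list was chosen with earlier results of these data known, so its share is not independent support. PAX3, a paired-domain factor of the dorsal neural tube, fell by 1.24 on the log2 scale (SE 0.210, adjusted p = 0.0224). It read 102 to 173 in the 4 OE libraries, 214 to 310 in WT and 235 to 626 in KO. WNT1 fell by 1.65 (SE 0.339, adjusted p = 0.0418). WNT2B, another WNT ligand, fell by 1.71 (SE 0.359, adjusted p = 0.0433), with OE at 172 to 318, WT at 508 to 1410 and KO at 553 to 1608. GDF10, a BMP-family protein, fell by 1.31 (SE 0.277, adjusted p = 0.0443) and read 11 in both OE libraries of day 30, the lowest value in the tables. ZIC4 passed the adjusted p but not 2-fold, at -0.69 (adjusted p = 0.0348). GDF7, a BMP ligand made in the roof plate, was at -0.98 (adjusted p = 0.203) and did not pass. Against WT itself none of these 4 genes was called, with log2 changes of OE of -0.97 for PAX3, -0.82 for WNT1, -1.47 for WNT2B and -1.46 for GDF10 (adjusted p = 0.192, 0.630, 0.270 and 0.141). The median of the list was -0.40 beside 0.01 over all genes, with 8 genes above 0 and 14 below. Over the alternatives, the adjusted p stayed under 0.05 in 15 of 20 for PAX3, 11 of 20 for WNT1, 10 of 20 for WNT2B and 6 of 19 for GDF10. The count of 4 was from 0 to 4 with 1 library left out. It was 0 without WT day 25 replicate 1, WT day 30 replicate 1, OE day 25 replicate 1, OE day 25 replicate 2 or OE day 30 replicate 2, and 5 without both KO libraries numbered 2.

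**Figure D3:**
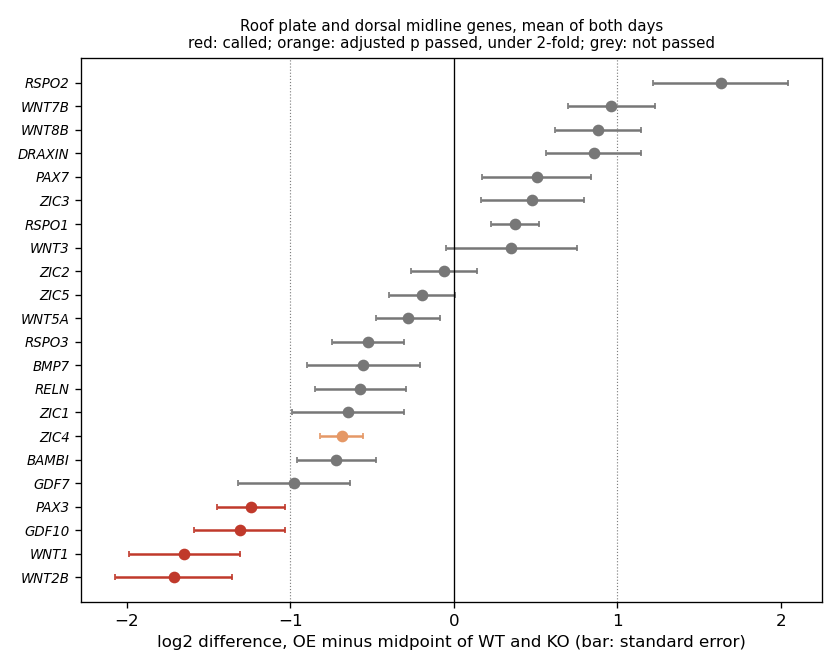
Log2 difference of OE from the midpoint of WT and KO, mean of both days, for the 22 listed roof plate and dorsal midline genes other than the members, with standard errors as bars and dotted lines at 2-fold. PAX3, GDF10, WNT1 and WNT2B, in red, were called lower, ZIC4, in orange, passed the adjusted p alone, and RSPO2, the highest at 1.63, did not pass (adjusted p = 0.0843).

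Other partners of the members showed few calls. Of 22 LIM-homeodomain genes and cofactors, 13 were listed, 11 of them not members, and none was called in any of the 7 comparisons in limma. LDB1, the cofactor through which LIM-homeodomain proteins work, read 192 to 240 in WT, 144 to 226 in KO and 220 to 252 in OE. LDB2, its relative, had the list's largest difference from the midpoint in OE, a log2 change of 1.15 (adjusted p = 0.113), and LHX9, a thalamic member, was at 0.30 (adjusted p = 0.737). Of 30 homeobox genes related to MSX, only BARHL1 was listed beside MSX1 and MSX2, and its difference of OE from the midpoint was -0.01. Of 29 BMP receptors, SMADs and immediate BMP targets, 19 were listed and none was called in any of the 7 comparisons. ID1, a direct target of BMP signalling, read 356 to 578 in WT, 500 to 784 in KO and 172 to 500 in OE, a log2 difference of OE from the midpoint of -0.95 (adjusted p = 0.113). NOG, a BMP antagonist, was at -0.88 (adjusted p = 0.155) and ID3 at -0.48 (adjusted p = 0.346). FSTL1, a secreted BMP antagonist, passed the adjusted p but not 2-fold, at -0.99 (adjusted p = 0.0443). Of 32 floor plate, dopamine and serotonin genes tied to LMX1A and LMX1B, 8 were listed, and the 1 call among them was WNT1, already given. OTX2, a forebrain and midbrain factor, read 450 to 732 over all 12 libraries and was at -0.06 (adjusted p = 0.843).

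The summed values of markers of other cell types overlapped between the genotypes, and these sums were not tested. The 2 listed surface ectoderm markers of 8 were KRT8 and KRT18, which are both also in the choroid plexus list below. Their summed value was 233 to 346 in WT, 312 to 616 in KO and 128 to 326 in OE. EPCAM and CDH1 were not listed. The 2 listed mesenchyme markers of 10, COL1A2 and PDGFRA, summed to 142 to 318 in WT, 210 to 874 in KO and 115 to 316 in OE, and TWIST1 and PRRX1 were not listed. Neural crest markers, 2 of 7 listed, summed to 290 to 379 in WT, 262 to 537 in KO and 288 to 404 in OE. Neural progenitor markers, 7 of 9 listed, ran opposite to LMX1B and MSX1 at day 25. In KO against WT at day 25 all 7 were below 0, with a median log2 change of -0.94, and 3 were lower at an unadjusted p under 0.05 and 2-fold. In OE against KO at day 25 all 7 were above 0, with a median of 1.14, and 4 were higher at that threshold, beside 4.25% of all genes. None of the 7 was called in either comparison. At day 30 the medians of the 7 markers were -0.25 and 0.00. Without VIM, which leads the sum, they summed to 2116 to 2482 in WT, 855 to 2471 in KO and 2221 to 2894 in OE.

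Of 12 choroid plexus markers, 9 were listed, and without the leading TTR they summed to 1686 to 2509 in WT, 2113 to 2655 in KO and 1539 to 2152 in OE. In OE against KO, 2 of the 9 were above 0 and 7 below at day 25 (median -0.68), and 5 were above and 4 below at day 30 (median 0.01). At day 30, with the lower library first, TTR read 2672 and 3452 in OE against 638 and 2672 in KO, and CLIC6 read 160 and 198 against 78 and 92. The 1 call of the list in each was CLDN1, an epithelial tight-junction gene, which read 146 to 172 in WT, 232 to 460 in KO and 22 to 82 in OE. It was called lower in OE than in KO at day 25 (log2 change -3.19, adjusted p = 0.0439), at day 30 (-3.21, adjusted p = 0.0479) and against the midpoint (-2.61, adjusted p = 0.00514), and the last of these calls held in all 20 alternatives. The call at day 25 was lost in 4 of 13 alternatives, without either OE library of that day (adjusted p = 0.220 and 0.199), with only the libraries compared (0.175) and with library weights (0.124). The call at day 30 was lost in 6 of 13. These were a pseudocount of 0.1 (0.0511), only the libraries compared (0.762), library weights (0.562), KO replicate 2 left out (0.382), OE replicate 2 left out (0.339) and both KO libraries numbered 2 left out (0.183).

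Neuron markers, 8 of 8 listed, summed to 6472 to 8864 in WT, 7505 to 9682 in KO and 7324 to 10238 in OE. MAP2, which leads this sum, read either 2674 or 3456 in each library, and no sum without it was taken. Of the 8 markers, 4 lay above and 4 below 0 in OE against KO at day 25 (median 0.12). GAP43, a growth cone gene, was called lower there (log2 change -1.24, adjusted p = 0.0439), with adjusted p from 0.0125 to 0.245 over 13 alternatives. With the lower library first, ELAVL3, an RNA-binding protein of neurons, read 274 and 382 in OE against 150 and 152 in KO. ELAVL4 read 150 and 174 against 108 and 158. The thalamus markers without ZIC1, which leads their sum, summed to 612 to 905 in WT, 496 to 1001 in KO and 588 to 1363 in OE, and their median change in KO against WT was 0.06 at day 25 and 0.02 at day 30 with ZIC1 included. None of 5 pluripotency markers was listed. The part of these cells in the members' values was not tested.

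The genes whose pattern was most like each member were ranked by Pearson's r of log2 values over the 12 libraries, which share genotype groups and KO libraries that stand apart, so r is a description. For LMX1B, CYP1B1 (r = 0.96), a cytochrome that the study picked out from these libraries, came first, then ELN (0.95), which encodes elastin, the cell-surface glypican GPC6 (0.93), the chromatin reader MLLT3 (0.93) and CADPS2 (0.92), a vesicle release factor. CYP1B1 read 1466 and 1738 in KO at day 25 and 51 and 238 in OE, and its KO day 30 libraries read 787 and 2394. The lowest r with LMX1B were those of SOX11 (-0.93), a factor of immature neurons, RSPO2 (-0.92) and ANKMY2 (-0.92). MSX1 came at 0.84 to LMX1B and LMX1A at 0.45.

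For MSX1, the highest were AK1 (0.95), an adenylate kinase, the coactivator PPARGC1A (0.95), the lipid transfer protein PLTP (0.95), CFAP43 (0.95), a protein of motile cilia, and DGCR6 (0.94). The lowest were SOX4 (-0.96), RSPO2 (-0.95) and SOX11 (-0.93). SOX4 read 446 to 674 in KO, 763 to 946 in WT and 660 to 1010 in OE. For MSX2, the highest were WDR49 (0.96), MLF1 (0.95), OSCP1 (0.95), the kinase MOK (0.94) and AP1M1 (0.94), an adaptor subunit of vesicle transport. WDR49 read 92 and 342 in KO at day 25 and 85 and 232 at day 30, the same split by replicate as MSX2, with 62 to 95 in WT. The lowest for MSX2 were KDM4B (-0.96), a histone demethylase, ZBTB34 (-0.95) and CCDC92 (-0.95).

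For LMX1A, the highest were MAPKAP1 (0.94), a subunit of the TORC2 complex, KAZN (0.92), TTC5 (0.89), VAC14 (0.89) and TTC21A (0.88), and the lowest BAG4 (-0.92), the ribosomal protein gene RPS23 (-0.90) and ZNF146 (-0.90). LMX1A followed the replicate of KO day 30 in these: TTC5 read 96 and 236 there and TTC21A read 26 and 120. Taking deviations from the group means, the r of LMX1B with CYP1B1 was 0.86, and that of LMX1B with LMX1A was -0.19 where that of MSX1 with MSX2 was 0.79.

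**Figure D4:**
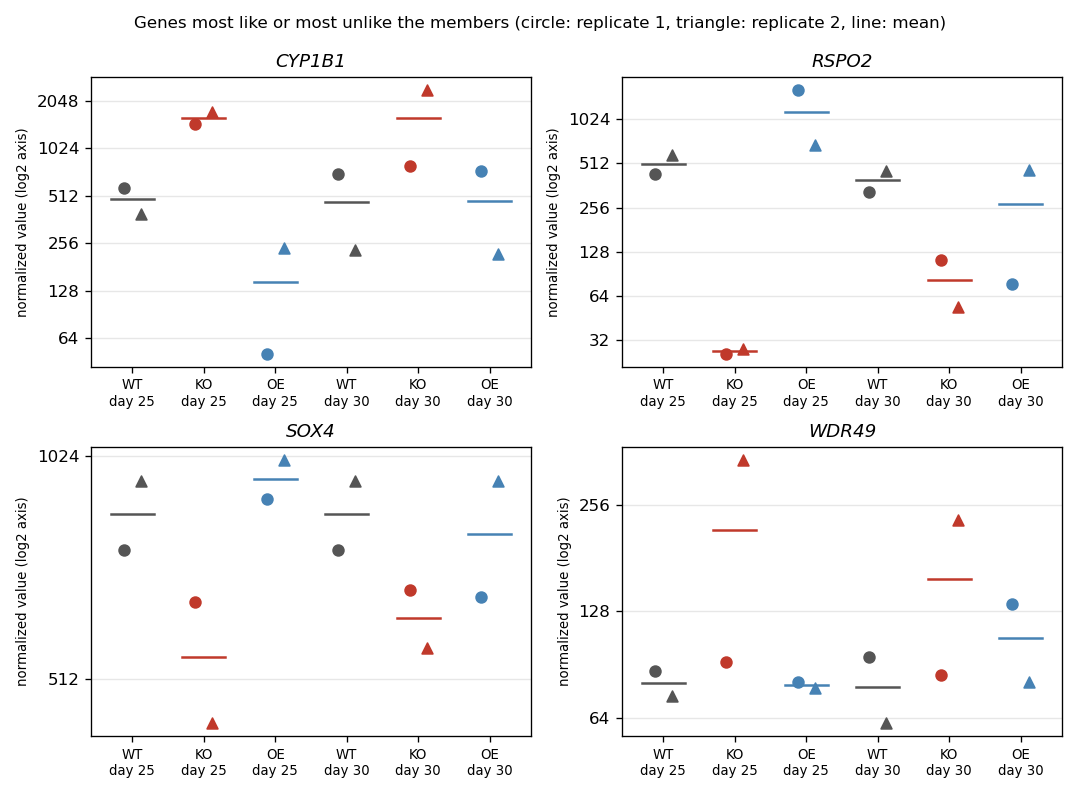
Normalized value of 4 genes most like or most unlike a member in each of the 12 libraries on a log2 axis, by genotype and day (grey WT, red KO, blue OE; circles replicate 1, triangles replicate 2, lines the mean). CYP1B1 is highest in KO as LMX1B is, RSPO2 and SOX4 are lowest in KO at day 25 where LMX1B and MSX1 are highest, and WDR49 is high in the KO replicate 2 libraries (342 and 232) as MSX2 is.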

How the data were processed

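RNA was extracted with TRIzol from 3 pooled ThOs per library. The authors deposited 1 table per library with a whole-number normalized expression score for each gene, which is not a read count. Per the labels, bcl2fastq, RSEM, Bowtie2 and hg19 were used, with no roles given. The normalization is not given in the sources used here. Library sums ran from 1788282 to 1798596, and every listed gene exceeded 10 in every library, so genes low in any library cannot be seen. Positions are on GRCh38, since all 9386 symbols matched to RefSeq overlapped there. A pseudocount of 1 was added, and limma 3.58.1 (R 4.3.3) was fitted to the log2 scores with a mean for each of 6 groups, empirical Bayes with an intensity trend (6 residual and 5.29 prior degrees of freedom) and two-sided p-values adjusted by Benjamini-Hochberg over 9497 genes. Fold changes on this scale understate those of low genes. Every adjusted p is from limma. Genes were named by a rule: the members, JUN, the 5 genes most and 3 least like each member, genes called in the lists, otherwise up to 3 with the largest change, and named relatives. The members and lists were chosen with earlier results of these data known. Alternatives were pseudocounts of 0.1 and 10, a mean of at least 50, median centring and quantile normalization. Others were library weights, a replicate block, only the libraries compared, and each library left out. Median centring could change nothing, since every library has the same median, so it adds no check to the counts of alternatives. The steps were tested on simulated data with the same spread in every group and no outlying library. Those tests therefore do not cover the wider spread seen between KO replicates.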

Additional observations from a re-analysis of the deposited data

Results flagged for a closer look

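Among 4 libraries of a genotype over both days, 3 values lay far from the other 3 by Dixon's ratio of gap to range, for which chance flags about 1 in 20 groups. LMX1B read 525 in KO day 25 replicate 1, where the other KO libraries read 368 to 388. MSX1 read 438 and MSX2 read 130 in OE day 30 replicate 1, where the other OE libraries read 116 to 140 and 64 to 67.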

How the results depend on the processing

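The counts of genes called moved with the setting and the cause was not tested. For KO against WT at day 25 the count of 1 was 0 under the replicate block or library weights, 422 without both KO libraries numbered 2 and 0 to 34 with 1 library left out. At day 30 it was 0, 1 without both and 0 to 1078 with 1 left out, the highest without KO day 30 replicate 1. For OE against KO at day 25 the count of 26 was 8 with the block, 0 with only the libraries compared, 1 with weights, 713 without both and 0 to 290 with 1 left out. At day 30 the count of 8 was 13, 0, 1 and 5, and 0 to 1441 with 1 left out. For OE against WT the count of 15 was 5 with the block, 68 with only the libraries compared, 91 with weights and 3 to 10 with 1 left out. For the midpoint the count of 84 was 48 with the block, 145 with weights and 5 to 250 with 1 left out, and its roof plate count of 4 was 1 with the block and 0 to 4 with 1 left out. For day 30 against day 25 the count of 0 was 75 without both KO libraries numbered 2 and 0 to 34 with 1 left out.

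LMX1B against the midpoint was -1.71 with the replicate block (adjusted p = 0.0602) and ran from -2.13 to -1.29 with 1 library left out. With 1 library left out, LMX1B in OE against KO lay between -4.30 and -2.63 at day 25 and between -2.50 and -1.03 at day 30, and MSX1 at day 30 between -1.52 and 0.11. LMX1A at day 30 ran from 0.56 to 1.48 in KO against WT and from -1.53 to -0.61 in OE against KO, with the first bound of the former and the last of the latter also found without both KO libraries numbered 2. MSX2 at day 25 ran from 0.42 to 1.93 in KO against WT and from -1.89 to -0.38 in OE against KO, and was 0.42 and -0.38 without both. MSX2 against the midpoint turned to 0.093 without both (adjusted p = 0.858). The day difference turned sign for MSX1 (-0.13 to 0.42) and MSX2 (-0.10 to 0.41) with 1 library left out, and on unlogged values for LMX1B and MSX1 (exact permutation p = 0.898 and 0.954).

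Leaving out both KO libraries numbered 2 and every alternative for the roof plate count were chosen after seeing the data. Leaving out a library leaves a group with 1, assumed to vary like the others. Only the libraries compared gave no new value for the midpoint and day comparisons, which use all 12. Same-numbered libraries of different groups did not deviate together (r from -0.21 to 0.26 over 15 pairs of groups, median -0.02), and in 2 of 6 groups the strongest correlation was with the same number, so the replicate block above is only an alternative and no paired reading is made. What the unknown depth limits could not be assessed.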
